A study of Mus musculus with 15 samples.

Results

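The DNA replication machinery was followed here as a set of 48 genes in RNA sequencing data from 5 cell populations of mouse bone marrow. The genes were chosen by symbol from a list of known replication factors, and all 48 were rows of a deposited table of 14801 genes. All 48 also passed a filter on low values, a log2 CPM (the log2 of reads scaled to library size) above 0 in at least 3 of 15 libraries, which kept 14161 genes. The set holds factors that recognise and license replication origins, the MCM helicase, factors that activate it, the replicative polymerases, the sliding clamp and its loader, single-strand binding proteins, enzymes that join Okazaki fragments, enzymes of nucleotide supply, the E cyclins and factors that rebuild chromatin behind the fork.

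A chromosome is copied once per cell cycle. In G1 phase the origin recognition complex, Cdc6 and Cdt1 load the MCM helicase onto origins, and in S phase kinases that include cyclin E with Cdk2 switch it on, so that polymerases can follow the opened strands. Many of these genes are targets of E2F transcription factors and are transcribed as cells enter S phase. In marrow, early granulocyte precursors divide, while later neutrophil stages have left the cell cycle.

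Flow cytometry was used to sort the cells from freshly taken marrow, the mice being described as healthy, and each population has 3 libraries. The populations are named ProNeut_Neutrophil and PreNeut_Neutrophil (shortened to ProNeut and PreNeut), Neutrophil, CD115plusGMP and CMP. In common usage the last 2 names stand for granulocyte-monocyte progenitors positive for the receptor CD115 and for common myeloid progenitors. The labels give no strain, age, sex, sort gates or treatment, and it is not stated whether replicates came from separate or pooled animals. The p-values thus reflect how far the replicates lie apart, and that spread may be technical.

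Depth split the libraries by population. The 6 ProNeut and PreNeut libraries had 7493694 to 68171606 reads over the genes of the table, and the 9 Neutrophil, CD115plusGMP and CMP libraries had 810794 to 1444403. In the 9 shallower libraries identifiers that have no symbol took 55.6% to 69.5% of reads, and the mitochondrial gene ND6, which lies on the other strand from most mitochondrial genes, held 69.1% to 93.3% of mitochondrial protein-gene reads. In the 6 deeper libraries these shares were 0.102% to 0.146% and 0.154% to 0.230%. The counts of the 9 shallower libraries may thus come largely from the strand opposite to each gene. The strand setting is not given in the sources used here, so a value there is given for the gene's locus, and 0 reads there do not show that the gene itself was silent. Kind of library and population cannot be told apart between the deeper and the shallower libraries, so no test was run across them. The names Neutrophil and CD115plusGMP were checked against markers. Of the late neutrophil genes, 11 of 11 were called higher in Neutrophil than in CMP libraries, against 26.8% of all genes. In CD115plusGMP, 6 of 7 monocyte genes and 6 of 7 early neutrophil genes were called higher than in CMP libraries, against 8.08% of all genes. Csf1r, the gene of CD115, had 27 reads in CD115plusGMP, 2 in CMP and 66 in Neutrophil libraries. It was not called between CD115plusGMP and Neutrophil. These too are values of loci, with the limit on strand given above. The names ProNeut, PreNeut and CMP were not checked in this way. In CMP libraries erythroid genes summed to 490 to 620 CPM, against 9.52 to 22.1 CPM in CD115plusGMP libraries. Stem and progenitor genes summed to 17.7 to 24.3 CPM in CMP and 9.41 to 40.3 CPM in CD115plusGMP libraries. CMP is thus used here as the name on the label only.

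The main comparison was ProNeut against PreNeut, the 2 populations with deep libraries. All 48 replication genes had a lower mean level in ProNeut than in PreNeut libraries, against 44.6% of all genes tested. Their summed level was 1112, 1208 and 1209 CPM in ProNeut libraries and 2895, 2721 and 2799 CPM in PreNeut libraries, so the groups were far apart. The median log2 difference of the 48 genes was -1.30, with single genes between -2.62 and -0.47, while the median of all genes was 0.07. For 46 of the 48 genes every ProNeut library lay below every PreNeut library, which held for 18.2% of all genes. The exceptions were Rpa3 and Pole3, whose libraries overlapped.

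Calls required an adjusted p under 0.05 together with a log2 difference of at least 1 in size. With limma fitted to all 15 libraries and Benjamini-Hochberg adjustment over all genes tested, 8 replication genes fell in ProNeut, against 0.417% of all genes. They were Orc1, Cdc6, Pcna, Ccne2, Mcm2, Pola1, Mcm3 and Gins2. No replication gene was called higher (0 with limma, 0 at an unadjusted p under 0.05 and 0 with voom on recovered reads), where 1.84% of all genes were. In this fit the 5 populations share one estimate of the spread per gene, and the standard errors of the 48 differences were 0.33 to 0.93. With only the 6 ProNeut and PreNeut libraries in the fit they were 0.07 to 0.39, and 33 replication genes were called lower, against 2.74% of all genes. The differences themselves are the same in both fits. In the 6-library fit 46 of the 48 genes had an adjusted p under 0.05 whatever their size, Rpa3 (0.105) and Pole3 (0.11) being the exceptions.

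The count of 8 depended on single libraries. In the 15-library fit it was 2 without ProNeut replicate 1, 4 without ProNeut replicate 2 and 4 without ProNeut replicate 3. It was 4 without PreNeut replicate 1, 5 without PreNeut replicate 2 and 3 without PreNeut replicate 3. Orc1 and Ccne2 were called in all 6 of these fits, while Cdc6, Gins2 and Pola1 lost their call in all 6, with adjusted p up to 0.0915, 0.191 and 0.176. With libraries centred on a common median, 0 of the 48 genes were called in the 15-library fit and 31 in the 6-library fit. In the 6-library fit the count was 32 to 34 when 1 library was left out.

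**Figure D1:**
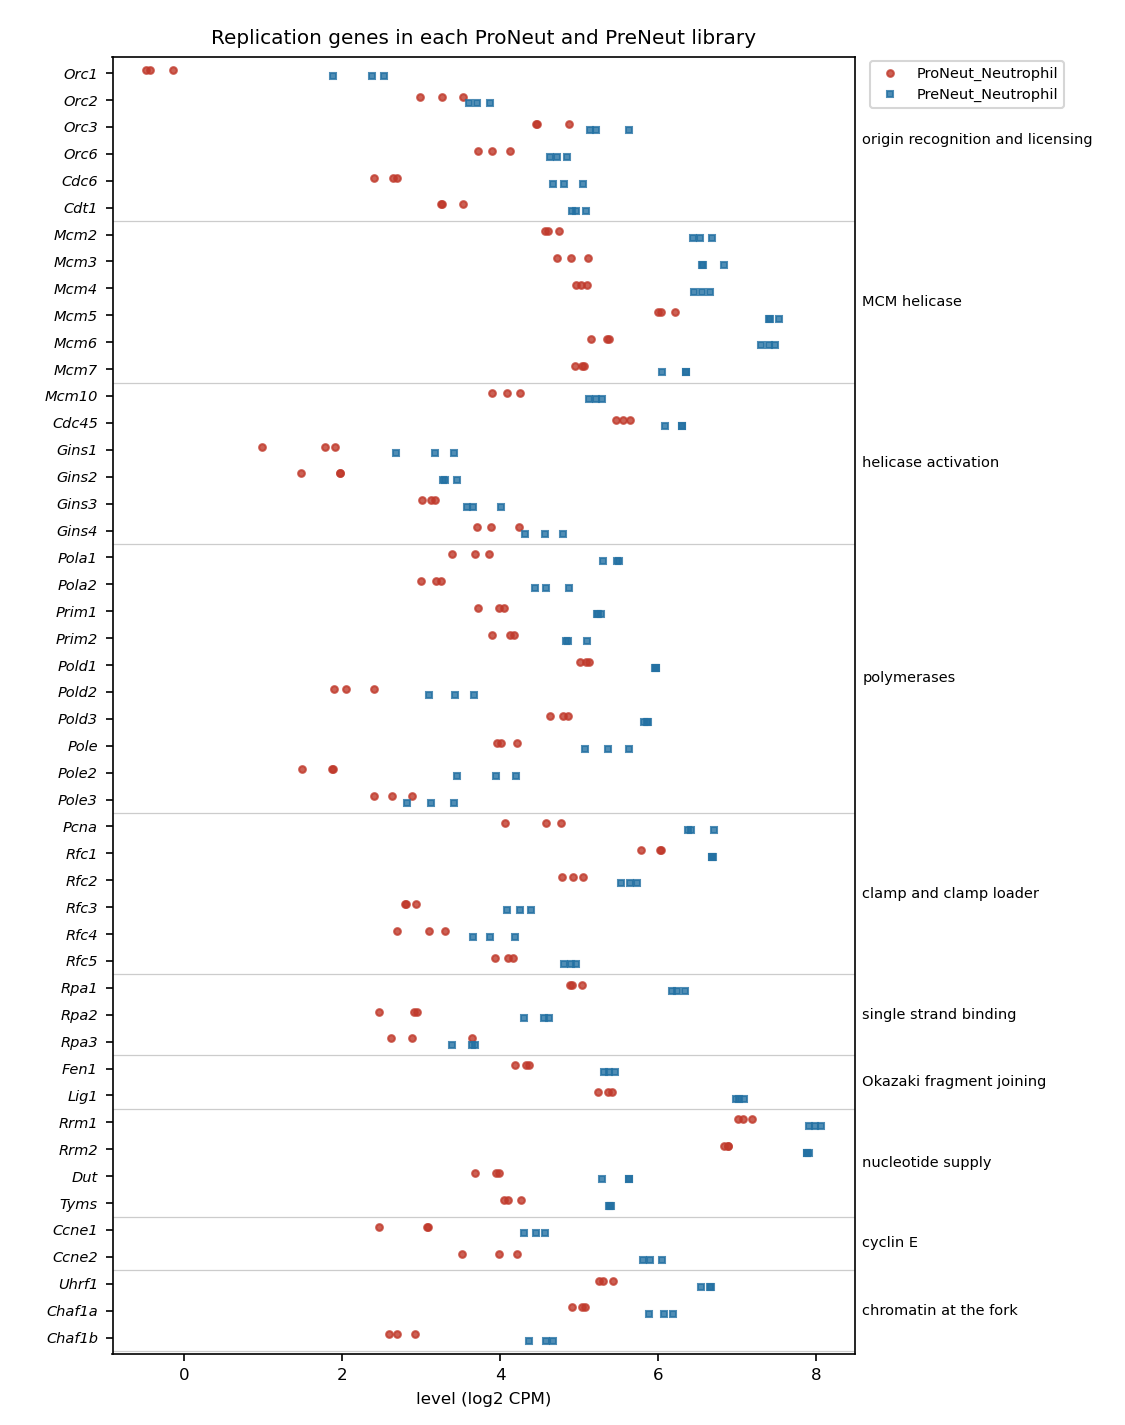
Level of each replication gene (log2 CPM, horizontal axis) in the 3 ProNeut libraries (red circles) and the 3 PreNeut libraries (blue squares), 1 row per gene, grouped by role. The circles lie left of the squares in 46 of 48 rows, and only Rpa3 and Pole3 overlap.

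**Figure D2:**
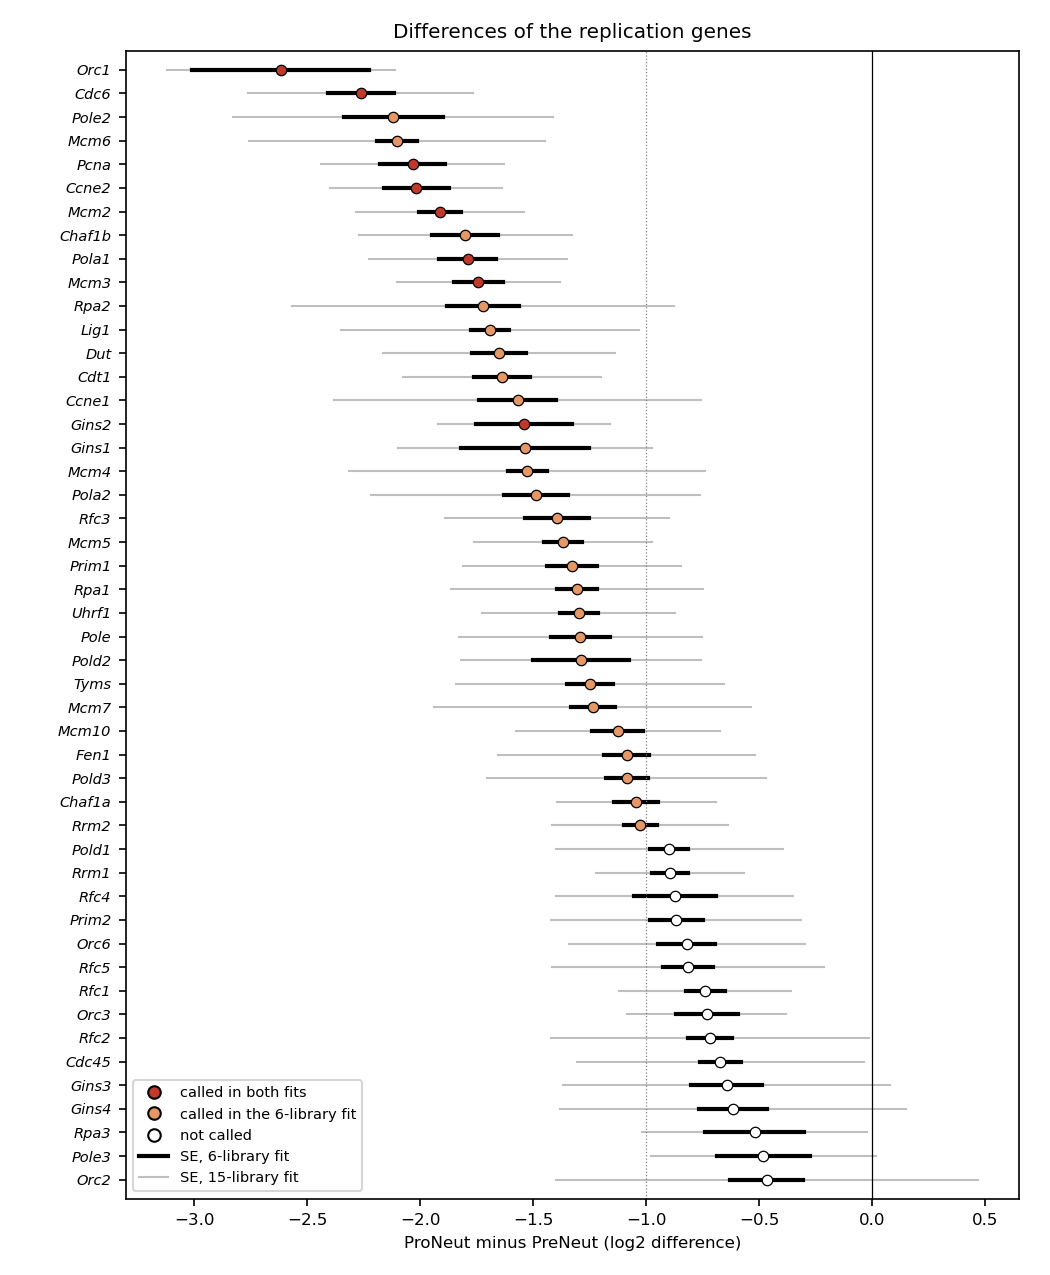
Log2 difference ProNeut minus PreNeut of the 48 replication genes (points) with standard errors from the 15-library fit (grey) and the 6-library fit (black). All points lie below 0, and the dotted line marks the minimum size of -1 for a call; 8 genes are called in both fits and 25 more in the 6-library fit.

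Promoter sequences were taken from RefSeq (GRCm38.p6), 250 bases before to 50 after the annotated start, and were at hand for 40 of the 48 genes; those of Pole, Gins1, Ccne2, Gins4, Mcm4, Gins2, Prim2 and Rfc2 are not shown. An E2F word (TTTCCCGC, TTTGGCGC, TTTCGCGC or TTTGCCGC, on either strand) was present in 16 of the 40, or 40.0%, against 4.54% of 10438 tested genes and 2.61% of all 27025 genes with a promoter in the table. The CCAAT word, on either strand, was present in 24 of 40 (60.0%), against 43.0% of tested genes. The words TTTGAA or TTCGAA, on either strand, were present in 7 of 40 (17.5%), against 16.8% of tested genes. The 16 genes with an E2F word had a median log2 difference ProNeut minus PreNeut of -1.52, and 4 of them were called in the 15-library fit. The 24 without had a median of -1.11, and 2 of them were called. A match is only these letters in this window and does not show that a factor binds there.

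The promoters of 6 of the called genes are shown from 150 bases before to 30 after the start, 5′ to 3′ along the gene, because they carry the pattern unevenly: Orc1, Mcm3, Cdc6 and Pola1 hold an E2F word, and Mcm2 and Pcna hold none. Capitals mark E2F words and CCAAT words on either strand. They lie at chr4:108579304-108579483 on the plus strand for Orc1, chr1:20820283-20820462 on the minus strand for Mcm3, chr11:98908001-98908180 on the plus strand for Cdc6, chrX:93632126-93632305 on the minus strand for Pola1, chr6:88898751-88898930 on the minus strand for Mcm2 and chr2:132253151-132253330 on the minus strand for Pcna.
Orc1: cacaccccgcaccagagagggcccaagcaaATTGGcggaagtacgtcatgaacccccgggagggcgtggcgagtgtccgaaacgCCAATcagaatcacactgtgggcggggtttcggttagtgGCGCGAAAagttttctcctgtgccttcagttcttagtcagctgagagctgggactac
Mcm3: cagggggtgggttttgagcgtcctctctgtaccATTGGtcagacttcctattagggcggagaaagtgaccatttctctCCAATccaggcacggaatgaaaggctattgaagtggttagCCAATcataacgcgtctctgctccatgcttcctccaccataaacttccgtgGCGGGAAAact
Cdc6: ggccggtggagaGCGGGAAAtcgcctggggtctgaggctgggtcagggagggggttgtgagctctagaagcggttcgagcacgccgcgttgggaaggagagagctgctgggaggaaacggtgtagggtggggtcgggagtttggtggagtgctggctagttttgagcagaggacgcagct
Pola1: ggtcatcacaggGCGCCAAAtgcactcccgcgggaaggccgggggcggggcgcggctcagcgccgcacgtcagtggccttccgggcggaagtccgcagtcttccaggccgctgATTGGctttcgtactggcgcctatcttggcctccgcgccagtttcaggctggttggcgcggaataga
Mcm2: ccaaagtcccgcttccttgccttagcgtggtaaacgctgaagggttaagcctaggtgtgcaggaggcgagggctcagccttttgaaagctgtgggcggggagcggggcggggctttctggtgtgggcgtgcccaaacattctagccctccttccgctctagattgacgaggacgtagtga
Pcna: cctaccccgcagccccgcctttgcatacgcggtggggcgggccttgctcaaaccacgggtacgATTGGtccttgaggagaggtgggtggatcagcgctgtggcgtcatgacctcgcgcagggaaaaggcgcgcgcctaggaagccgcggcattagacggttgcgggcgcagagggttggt
In Orc1 the E2F word begins 27 bases before the start and in Mcm3 the one shown begins at base 20 after it, with another at base 39 outside the stretch shown. In Cdc6 and in Pola1 it begins 138 bases before the start. Positions count from the RefSeq start, which for Cdc6 lies 350 bases, for Pcna 134 and for Orc1 31 bases downstream of the GENCODE gene start, so the stretch shown for Cdc6 lies inside the GENCODE gene. The CCAAT word of Mcm2 lies 175 bases before the start, outside the stretch shown.

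Among the 6 genes of origin recognition and licensing, 2 fell in the 15-library fit and 3 in the 6-library fit, and the median log2 difference was -1.23. Orc1 encodes the largest subunit of the origin recognition complex (chr4:108579423-108614833, plus strand, GRCm38). Its level was -0.15, -0.44 and -0.48 log2 CPM in ProNeut libraries, against 2.53, 1.88 and 2.38 log2 CPM in PreNeut libraries. The groups did not overlap, and Orc1 had the largest difference of the 48, -2.62 ± 0.50 (SE; limma, adjusted p = 0.0095), a 6.14-fold lower level. Cdc6, the ATPase that loads the helicase with Cdt1 (chr11:98907801-98923940, plus strand), had 2.69, 2.65 and 2.40 log2 CPM in ProNeut libraries and 5.05, 4.81 and 4.67 log2 CPM in PreNeut libraries. It fell by 2.26 ± 0.50 on the log2 scale (SE; limma, adjusted p = 0.0221), with no overlap. Cdt1, its loading partner, had 3.53, 3.26 and 3.25 log2 CPM in ProNeut libraries and 5.09, 4.91 and 4.96 log2 CPM in PreNeut libraries. Its groups did not overlap, and its difference of -1.64 passed only the 6-library fit (adjusted p 0.0676 and 9.03e-08, limma). The other origin recognition subunits moved less than Orc1. Orc6 averaged 3.91 ± 0.21 log2 CPM in ProNeut and 4.74 ± 0.11 log2 CPM in PreNeut libraries (SD, n = 3 each). Orc3 averaged 4.60 ± 0.24 and Orc2 3.26 ± 0.27 log2 CPM in ProNeut libraries, against 5.33 ± 0.26 and 3.73 ± 0.13 log2 CPM in PreNeut libraries. Orc2 had the smallest difference of the 48 (-0.47), and neither Orc2, Orc3 nor Orc6 was called in either fit.

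The 6 subunits of the MCM helicase, the ring that unwinds DNA at the fork, had a median log2 difference of -1.64, and all 6 were called lower in the 6-library fit, 2 of them in the 15-library fit. Their summed level was 213, 241 and 229 CPM in ProNeut libraries and 764, 693 and 675 CPM in PreNeut libraries. No library of either group came near the other group. Mcm2 (chr6:88883474-88898780, minus strand) had 4.56, 4.61 and 4.74 log2 CPM in ProNeut libraries and 6.69, 6.53 and 6.44 log2 CPM in PreNeut libraries. It fell by 1.91 ± 0.37 on the log2 scale (SE; limma, adjusted p = 0.0096). Mcm3 (chr1:20802968-20820312, minus strand) had 4.72, 5.11 and 4.89 log2 CPM in ProNeut libraries and 6.83, 6.58 and 6.55 log2 CPM in PreNeut libraries. It fell by 1.74 ± 0.36 (SE; limma, adjusted p = 0.0147), again without overlap. Mcm6 had a larger difference, -2.10, with 5.15, 5.35 and 5.38 log2 CPM in ProNeut libraries against 7.48, 7.31 and 7.41 log2 CPM in PreNeut libraries, but a standard error of 0.65 in the 15-library fit. It was called in the 6-library fit, where the standard error was 0.09. Mcm4 had 5.03, 5.11 and 4.96 log2 CPM in ProNeut libraries and 6.66, 6.56 and 6.46 log2 CPM in PreNeut libraries. Mcm5, the most abundant per length of the 6 in both populations, had 6.005, 6.215 and 6.036 log2 CPM in ProNeut libraries and 7.54, 7.42 and 7.40 log2 CPM in PreNeut libraries. Both were lower in every ProNeut library. Mcm7 averaged 5.02 ± 0.06 log2 CPM in ProNeut and 6.25 ± 0.17 log2 CPM in PreNeut libraries (SD, n = 3 each).

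Cdc45 and the 4 GINS subunits bind the loaded MCM ring to form the active helicase, and Mcm10 is needed to start unwinding. The 6 genes had a median log2 difference of -0.90, with 1 called lower in the 15-library fit and 3 in the 6-library fit. Gins2 (chr8:120578633-120589304, minus strand) had 1.97, 1.48 and 1.97 log2 CPM in ProNeut libraries and 3.31, 3.28 and 3.46 log2 CPM in PreNeut libraries. It fell by 1.54 ± 0.38 (SE; limma, adjusted p = 0.0445), with no overlap. Gins1 had 0.98, 1.90 and 1.78 log2 CPM in ProNeut libraries and 3.18, 2.68 and 3.41 log2 CPM in PreNeut libraries. The libraries of Gins1 were spread more widely than those of Gins2, and its difference of -1.54 was called only in the 6-library fit. Mcm10 averaged 4.08 ± 0.18 log2 CPM in ProNeut and 5.21 ± 0.08 log2 CPM in PreNeut libraries (SD, n = 3 each), and was called in the 6-library fit. Cdc45, Gins3 and Gins4 had smaller differences of -0.67, -0.65 and -0.62, below the size needed for a call.

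The polymerases gave 1 call of 10 in the 15-library fit and 7 of 10 in the 6-library fit, with a median log2 difference of -1.29. Polymerase alpha and primase begin each new strand. Pola1, the catalytic subunit (chrX:93304767-93632155, minus strand), had 3.39, 3.86 and 3.69 log2 CPM in ProNeut libraries and 5.51, 5.49 and 5.31 log2 CPM in PreNeut libraries. It fell by 1.79 ± 0.44 (SE; limma, adjusted p = 0.0421), with no overlap. Pola2, its accessory subunit, had 3.191, 2.997 and 3.253 log2 CPM in ProNeut libraries and 4.59, 4.88 and 4.45 log2 CPM in PreNeut libraries. Prim1, which makes the RNA primer, had 3.72, 4.05 and 3.98 log2 CPM in ProNeut libraries and 5.24, 5.23 and 5.28 log2 CPM in PreNeut libraries. Both were lower in every ProNeut library and called in the 6-library fit. Prim2, the large primase subunit, had a difference of -0.87.

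Polymerase epsilon copies the leading strand and polymerase delta the lagging strand. Pole2, a subunit of epsilon, had 1.87, 1.89 and 1.49 log2 CPM in ProNeut libraries and 3.95, 3.45 and 4.20 log2 CPM in PreNeut libraries. Its difference of -2.12 was the largest among the polymerases, yet with a standard error of 0.71 it missed the threshold in the 15-library fit (limma, adjusted p = 0.174). Pole, the catalytic subunit, averaged 4.07 ± 0.13 log2 CPM in ProNeut and 5.36 ± 0.28 log2 CPM in PreNeut libraries (SD, n = 3 each). Pole3, a small histone-fold subunit of epsilon, had 2.63, 2.40 and 2.89 log2 CPM in ProNeut libraries and 3.12, 2.82 and 3.42 log2 CPM in PreNeut libraries. The highest ProNeut library of Pole3 lay above the lowest PreNeut library, and the gene passed neither fit. Of the delta subunits, Pold2 had a difference of -1.29 and Pold3 of -1.09, both called in the 6-library fit, and Pold1, the catalytic subunit, one of -0.90.

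Pcna, the sliding clamp that holds polymerases on DNA (chr2:132249162-132253314, minus strand), had 4.07, 4.77 and 4.58 log2 CPM in ProNeut libraries and 6.42, 6.38 and 6.72 log2 CPM in PreNeut libraries. It fell by 2.03 ± 0.41 (SE; limma, adjusted p = 0.0119), a 4.10-fold lower level without overlap. The clamp loader, replication factor C, moved less. Rfc3 had 2.79, 2.81 and 2.94 log2 CPM in ProNeut libraries and 4.40, 4.09 and 4.25 log2 CPM in PreNeut libraries, and was called in the 6-library fit. The differences of Rfc4, Rfc5, Rfc1 and Rfc2 were -0.87, -0.82, -0.74 and -0.72, each with every ProNeut library below every PreNeut library but too small for a call. Rfc1, the large subunit, averaged 5.95 ± 0.14 log2 CPM in ProNeut and 6.69 ± 0.01 log2 CPM in PreNeut libraries (SD, n = 3 each).

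Replication protein A coats single-stranded DNA at the fork. Rpa1, its large subunit, had 4.89, 4.91 and 5.04 log2 CPM in ProNeut libraries and 6.34, 6.18 and 6.24 log2 CPM in PreNeut libraries. Rpa2 had 2.46, 2.95 and 2.90 log2 CPM in ProNeut libraries and 4.62, 4.31 and 4.56 log2 CPM in PreNeut libraries. Both were called lower in the 6-library fit. The small subunit Rpa3 had 2.61, 2.89 and 3.65 log2 CPM in ProNeut libraries and 3.68, 3.64 and 3.39 log2 CPM in PreNeut libraries. ProNeut replicate 3 of Rpa3 lay inside the PreNeut range, and the gene passed neither fit. Lig1, the ligase that seals Okazaki fragments, had 5.24, 5.37 and 5.42 log2 CPM in ProNeut libraries and 7.086, 7.022 and 6.996 log2 CPM in PreNeut libraries. The 2 groups of Lig1 were widely separated, with a difference of -1.69. Fen1, the nuclease that trims the fragments' flaps, averaged 4.29 ± 0.09 log2 CPM in ProNeut and 5.38 ± 0.07 log2 CPM in PreNeut libraries (SD, n = 3 each), and both genes were called in the 6-library fit.

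The 4 enzymes of nucleotide supply had a median log2 difference of -1.14, with 0 called in the 15-library fit (3 at an unadjusted p under 0.05, limma) and 3 in the 6-library fit. Rrm1 and Rrm2 are the subunits of ribonucleotide reductase, which makes deoxynucleotides. Rrm2 averaged 6.87 ± 0.03 log2 CPM in ProNeut and 7.90 ± 0.02 log2 CPM in PreNeut libraries, and Rrm1 7.10 ± 0.09 log2 CPM in ProNeut and 7.99 ± 0.08 log2 CPM in PreNeut libraries (SD, n = 3 each). Rrm1, at -0.90, did not reach the size for a call. Dut, which removes dUTP, had 3.69, 3.94 and 3.98 log2 CPM in ProNeut libraries and 5.64, 5.29 and 5.63 log2 CPM in PreNeut libraries. Tyms, which makes dTMP, averaged 4.14 ± 0.11 log2 CPM in ProNeut and 5.39 ± 0.01 log2 CPM in PreNeut libraries (SD, n = 3 each). Dut and Tyms lay lower in every ProNeut library.

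Cyclin E drives entry into S phase. Ccne2 (chr4:11191351-11204779, plus strand) had 3.51, 4.22 and 3.98 log2 CPM in ProNeut libraries and 5.82, 6.05 and 5.90 log2 CPM in PreNeut libraries. It fell by 2.02 ± 0.38 (SE; limma, adjusted p = 0.00834), the smallest adjusted p of the 48 genes. Ccne1 had 3.08, 2.46 and 3.08 log2 CPM in ProNeut libraries and 4.46, 4.30 and 4.57 log2 CPM in PreNeut libraries, a difference of -1.57 called in the 6-library fit. Neither cyclin's groups overlapped. Of the chromatin factors, Chaf1b, a subunit of the histone chaperone CAF-1, had 2.69, 2.93 and 2.60 log2 CPM in ProNeut libraries and 4.58, 4.37 and 4.67 log2 CPM in PreNeut libraries. Its difference of -1.80 missed the threshold in the 15-library fit (limma, adjusted p = 0.0592). Uhrf1, which brings DNA methyltransferase to newly copied DNA, had 5.26, 5.43 and 5.31 log2 CPM in ProNeut libraries and 6.66, 6.68 and 6.55 log2 CPM in PreNeut libraries. Chaf1a, the large CAF-1 subunit, had a difference of -1.05, and all 3 genes were called in the 6-library fit.

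Within each population the genes kept much the same order. Spearman's rank correlation of the 48 mean log2 CPM values between ProNeut and PreNeut was 0.925, a description over genes that share their lengths and kind of library. Per kilobase of exon, Rrm2 was highest, at 5.40 ± 0.03 log2 CPM per kb in ProNeut and 6.43 ± 0.02 log2 CPM per kb in PreNeut libraries (SD, n = 3 each). Mcm5 followed in both populations, at 4.09 and 5.46 log2 CPM per kb. Orc1 was lowest per kilobase in both, at -2.15 log2 CPM per kb in ProNeut and 0.46 log2 CPM per kb in PreNeut libraries.

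Genes of the same processes outside the 48 also lay mostly below 0; how their differences compare with those of the 48 was not tested. Of 26 other fork and origin factors, 23 had a lower mean in ProNeut, the median log2 difference was -0.78, and 0 were called in the 15-library fit (6 at an unadjusted p under 0.05, limma) and 8 in the 6-library fit. Dscc1, part of an alternative clamp loader, had a difference of -1.99, and Timeless, which stabilises forks, one of -1.61 (limma, adjusted p = 0.117 and 0.055 in the 15-library fit). Of 16 other genes of nucleotide synthesis, Shmt1, which supplies one-carbon units, fell by 2.73 ± 0.49 (SE; limma, adjusted p = 0.00644), and the list's median was -0.91, with 13 of 16 below 0. In the 6-library fit 7 of them were called lower and 1 higher, Samhd1, which breaks down deoxynucleotides, at 1.45. Paics, of purine synthesis, had a difference of -1.65, called in the 6-library fit. All 10 other chromatin replication genes lay below 0 (median -0.77), among them Hells at -1.88 and the maintenance methyltransferase gene Dnmt1 at -1.02, with 0 called in the 15-library fit (2 at an unadjusted p under 0.05, limma) and 3 in the 6-library fit. Among 17 E2F and pocket protein genes the median was -0.48, and Mybl2 (-1.77) and E2f1 (-1.62) were called in the 6-library fit. Of 9 replication checkpoint genes (median -0.38), Chek1 (-1.59) and Cdc25a (-1.04) were called in that fit.

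Genes of mitosis did not share this direction. Of 20 such genes 4 lay below 0, and the median log2 difference was 0.13. In either fit 0 were called (0 at an unadjusted p under 0.05 with all libraries in the fit, limma). For 9 of the 20 genes every ProNeut library lay above every PreNeut library, against 17.8% of all genes, and for 1 every library lay below. In the 6-library fit Ube2c and Ccnb1 had adjusted p of 1.93e-05 and 0.00792 (limma). Their differences of 0.67 and 0.65 were below the size for a call. Their summed level was 4415, 4434 and 4665 CPM in ProNeut libraries and 4278, 4312 and 4818 CPM in PreNeut libraries, so the groups overlapped. Ube2c, which marks mitotic proteins for destruction, averaged 7.77 ± 0.10 log2 CPM in ProNeut and 7.10 ± 0.07 log2 CPM in PreNeut libraries (SD, n = 3 each). Ccnb1, the mitotic cyclin B, averaged 4.10 ± 0.33 log2 CPM in ProNeut and 3.46 ± 0.10 log2 CPM in PreNeut libraries (SD, n = 3 each). The difference between the mitosis and the replication genes was not tested.

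**Figure D3:**
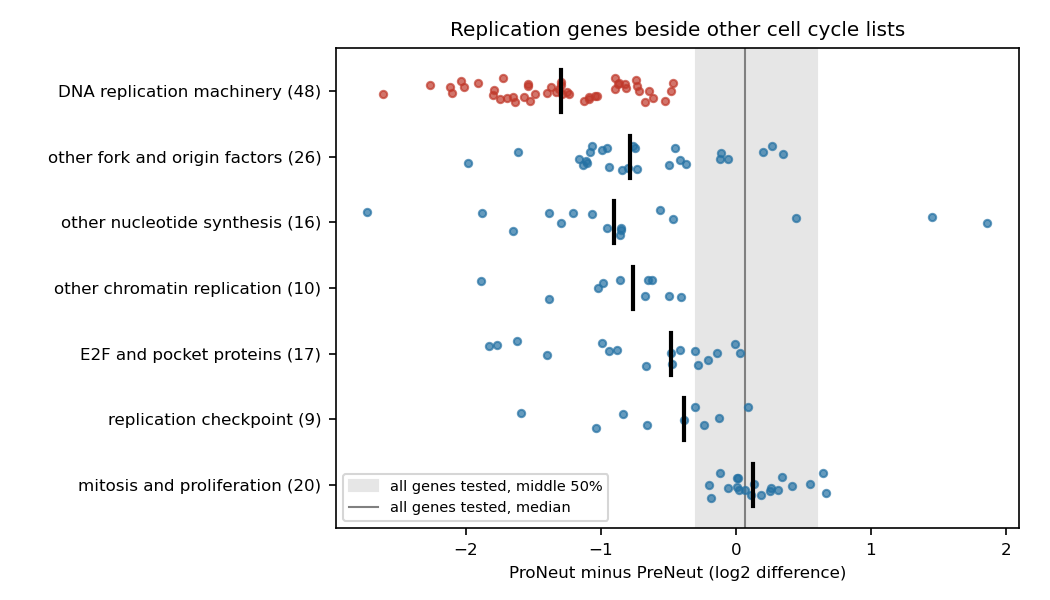
Log2 difference ProNeut minus PreNeut of each gene (points) for the 48 replication genes and 6 other cell cycle lists, with list medians as black bars and the middle 50% and median of all genes tested in grey. The replication genes have a median of -1.30 and the mitosis genes one of 0.13, near the 0.07 of all genes.

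Markers of other cells moved beside these genes. Early neutrophil genes were mostly lower in ProNeut (6 of 7 below 0 and 5 called). Their summed level was 394 to 464 CPM in ProNeut and 1356 to 1586 CPM in PreNeut libraries. Late neutrophil genes included 3 of 11 called higher, among them Mmp8. Erythroid genes included 5 of 8 called higher, with a summed level of 76.6 to 85.7 CPM in ProNeut and 47.2 to 68.2 CPM in PreNeut libraries. Basophil and mast cell genes included 4 of 5 tested called lower, at 2.28 to 2.52 CPM in ProNeut and 27.3 to 31.4 CPM in PreNeut libraries. Of the T and NK cell genes tested, Cd3d was called higher and Nkg7 lower. B lymphoid genes were at or below 2.6 CPM in sum in all 6 libraries, and neither they nor the stem cell or monocyte genes had a call in the 15-library fit; in the 6-library fit the monocyte gene Irf8 was called higher, at 1.54. The part of these cells in the difference was not tested. In bulk libraries, fewer cells that express a gene and less of its RNA per cell cannot be told apart.

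In marrow Neutrophil libraries most replication loci were at 0 reads. Of the 48 loci, 26 (54.2%) had 0 reads in all 3 Neutrophil libraries, as did 34.7% of all genes tested, and the summed reads over all 48 were 340, 549 and 412. In CMP libraries the summed reads were 1513, 1858 and 2450, and no locus was at 0, against 11.7% of all genes tested. Neutrophil minus CMP gave 38 loci called lower with limma in the 15-library fit, against 17.1% of all genes, and 3 called higher, against 26.8% of all genes. With only these 2 groups in the fit, 35 were called lower, against 13% of all genes, and 3 higher, against 29.9%. The median log2 difference was -3.28, beside 0.60 for all genes. A gene at 0 reads was deposited as 0.63, 0.62 and -0.32 log2 CPM in Neutrophil libraries and -0.79, -1.08 and -1.31 in CMP libraries. A gene at 0 reads in both groups thus got a positive difference: Mcpt8 was called higher at 1.37 (limma, adjusted p = 0.0476). Such genes add to the 26.8% share and raise the 0.60 median of all genes. At a locus with 0 reads in all 3 libraries of a group, the spread within that group reflects library scaling only. With loci at 0 reads set to a floor of 3 reads over the group, the median log2 ratio of reads scaled by library size was -2.53. Markers of other cells moved beside this comparison. Of the erythroid genes 7 of 8 were called lower, with a summed level of 0 to 9.61 CPM in Neutrophil and 490 to 620 CPM in CMP libraries. B lymphoid genes summed to 43.32, 88.84 and 48.04 CPM in Neutrophil libraries and 0.947 to 6.44 CPM in CMP libraries, nearly all on Cd79a, with 1 of 3 tested called higher. T and NK genes summed to 6.19 to 17.6 CPM in Neutrophil and 0 CPM in CMP libraries, with Cd3d called higher. Monocyte genes summed to 15.3 to 128 CPM in Neutrophil and 19.9 to 24.3 CPM in CMP libraries, with Csf1r and Ly6c2 called higher and Irf8 lower. The part of these cells was not tested. Folds against a group at 0 reads are lower bounds from that floor, and intervals cover counting error only.

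Rrm1, the locus with the largest difference, had 0, 0 and 0 reads in Neutrophil libraries and 102, 137 and 201 in CMP libraries, so it was at least 59.05-fold lower. Pole3 had 0 reads in every Neutrophil library and 44, 89 and 143 in CMP libraries, at least 37.0-fold lower. Mcm3 had 0 reads in every Neutrophil library and 62, 85 and 77 in CMP libraries, at least 30.1-fold lower. These 3 loci were detected in every CMP library and in no Neutrophil library. Mcm2 and Mcm5 were also at 0 in Neutrophil libraries, against 45, 87 and 75 reads for Mcm2 and 44, 45 and 68 reads for Mcm5 in CMP libraries, at least 27.8-fold and 21.1-fold lower. Mcm6 had 0, 3 and 0 reads in Neutrophil libraries and 59, 89 and 108 in CMP libraries, 34.4-fold lower (95% counting interval 11.6 to 168). Pcna had 0 reads in Neutrophil libraries and 38, 31 and 45 in CMP libraries, at least 15.3-fold lower. All 6 MCM loci, 9 of the 10 polymerase loci, all 4 of nucleotide supply, both of Okazaki fragment joining and all 3 chromatin loci were called lower.

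A few replication loci ran the other way. Pola2 had 95, 130 and 81 reads in Neutrophil libraries and 7, 4 and 15 in CMP libraries, 29.2-fold higher (95% counting interval 19.6 to 45.5; limma, adjusted p = 3.18e-05). Orc1 had 19, 27 and 22 reads in Neutrophil libraries and 7, 3 and 12 in CMP libraries, 7.68-fold higher (interval 4.69 to 13.04; limma, adjusted p = 9.94e-05). Gins2 had 50, 66 and 51 reads in Neutrophil libraries and 59, 55 and 74 in CMP libraries; scaled by library size it was 2.21-fold higher (limma, adjusted p = 0.0174). The call for Gins2 rested on the scaling: its log2 difference was 1.20 as deposited, -0.0116 after quantile normalization and -0.16 with plain library totals. Deposited library sizes were 323151, 326431 and 624538 in Neutrophil libraries, against 887982, 1283806 and 1401958 reads. In CMP libraries they were 865335, 1056223 and 1243017, against 953362, 1174210 and 1444403 reads. The folds given for Pola2 and Orc1 are thus larger than folds on read totals would be. Pola2 and Orc1 kept their calls with plain library totals. Orc3 and Ccne2 held many reads in both groups and were not called: Orc3 had 78, 170 and 99 in Neutrophil and 165, 135 and 229 in CMP libraries, and Ccne2 had 54, 118 and 53 in Neutrophil and 227, 246 and 330 in CMP libraries. Of these loci, Orc1, Gins2 and Ccne2 share at least 50 exon bases with a gene on the opposite strand (Gm12743, Gse1 and Ints8), while no such partner is annotated for Pola2 or Orc3. In all, 14 of the 48 genes have such a partner, and their loci held 43.5% to 46.2% of the replication reads in Neutrophil libraries and 36.0% to 40.1% in CMP libraries, against 22.5% to 24.6% in the 6 ProNeut and PreNeut libraries. The part of the partner genes in these values was not tested.

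**Figure D4:**
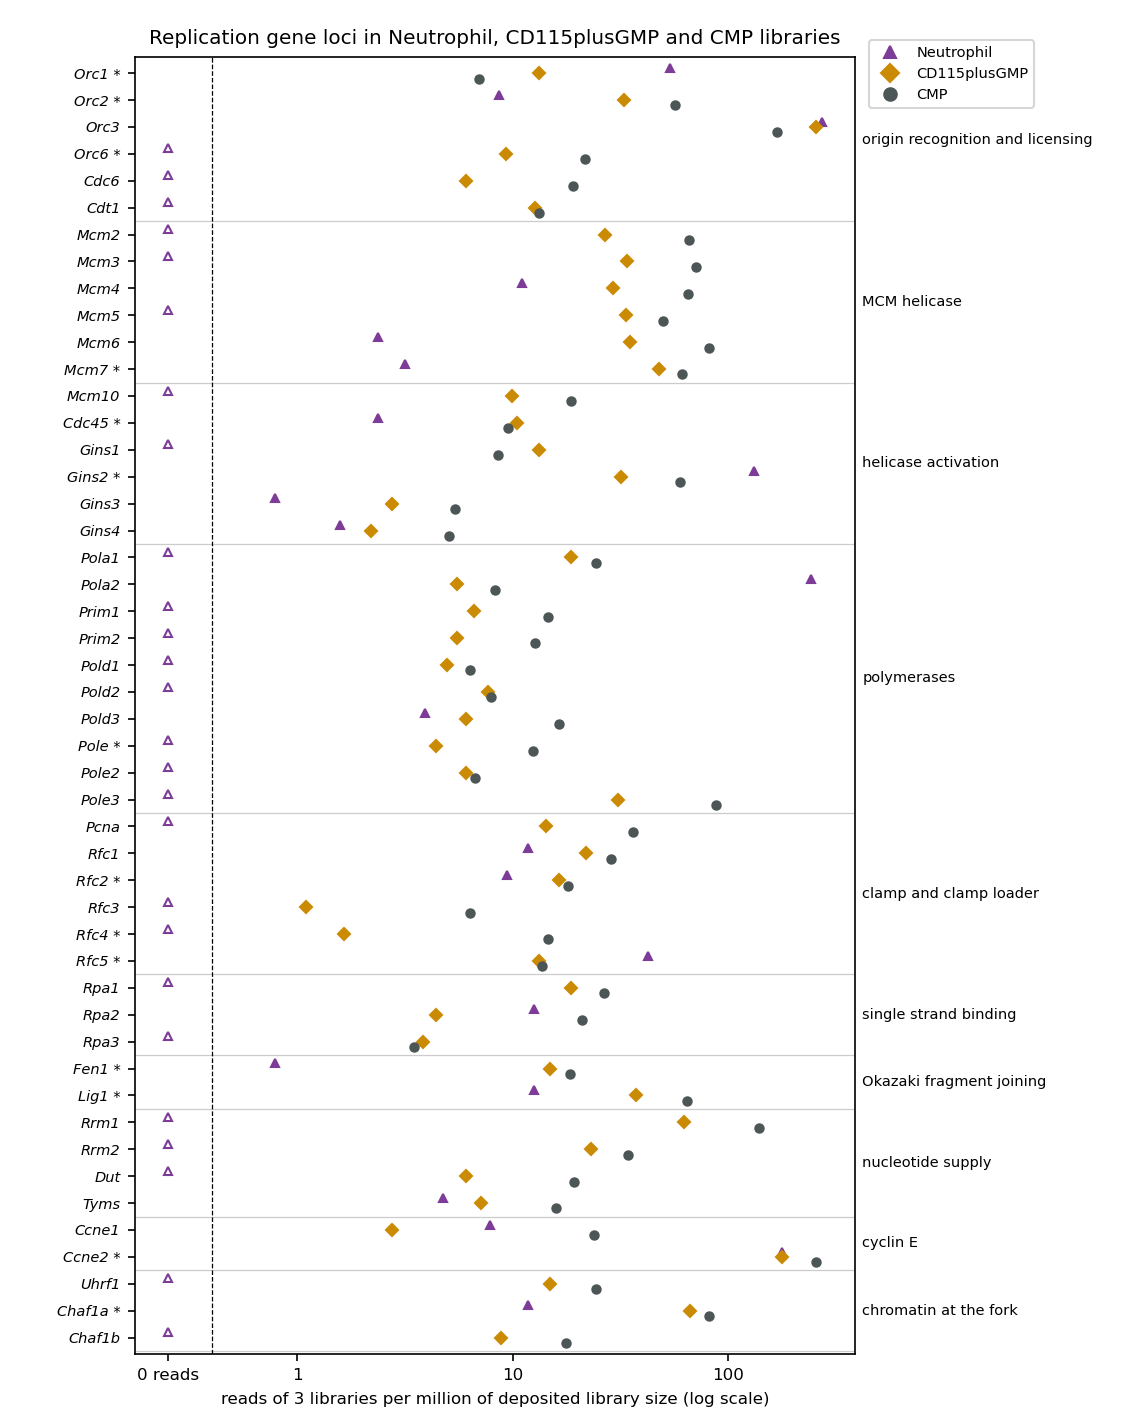
Reads of the 3 libraries together, scaled to deposited library size (log axis), at each replication locus, for Neutrophil (triangles), CD115plusGMP (diamonds) and CMP (circles); open triangles left of the dashed line are loci with 0 reads and a star marks a gene with an opposite-strand partner. In Neutrophil libraries 26 of 48 loci are at 0 reads (54.2%, against 34.7% of all genes tested), while Orc1, Orc3, Gins2, Pola2 and Rfc5 lie right of both progenitors. The scaling to deposited sizes enters this order: with plain library totals the log2 difference of Gins2 from CMP was -0.16. Before scaling, Orc3 had 78, 170 and 99 reads in Neutrophil libraries and 165, 135 and 229 in CMP libraries.

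Against CD115plusGMP, Neutrophil libraries gave 31 loci called lower with limma (13.2% of all genes) and 4 called higher (20.2% of all genes). The 4 were Pola2, Gins2, Orc1 and Rfc5. Gins2, Orc1 and Rfc5 lost the call after quantile normalization, and Orc1 and Rfc5 lost it with plain library totals. Rfc5 also lost it with voom and in 4 of the fits that left out 1 library (limma, adjusted p up to 0.186). The median log2 difference was -2.37, beside 0.32 for all genes, and -1.64 for the log2 ratio of scaled reads with the floor, over the 46 loci that were above the floor in at least 1 of the groups. Genes at 0 reads in both groups had a positive difference here too, 0.57 for Mcpt8, which raises the median of all genes. This comparison shares its Neutrophil libraries with the previous one. Rrm1 was at 0 in Neutrophil libraries, against 51, 41 and 22 reads in CD115plusGMP libraries, at least 26.5-fold lower. Mcm3 was at 0 in Neutrophil libraries, against 29, 17 and 16 reads in CD115plusGMP libraries, at least 14.4-fold lower. Both were detected in every CD115plusGMP library. Mcm5 (38, 13 and 10 reads in CD115plusGMP libraries), Mcm2 (21, 14 and 14) and Pole3 (35, 8 and 13) were at 0 in Neutrophil libraries too, at least 14.2-fold, 11.4-fold and 13.03-fold lower. Pola2 had 95, 130 and 81 reads in Neutrophil libraries and 4, 6 and 0 in CD115plusGMP libraries, 43.8-fold higher (95% counting interval 23.5 to 92.3). Rfc5 had 5, 22 and 27 reads in Neutrophil libraries and 8, 14 and 2 in CD115plusGMP libraries, a difference called by the test although the libraries overlapped. Cell markers moved beside this comparison too. Early neutrophil genes had 5 of 7 called lower and 1 higher, monocyte genes 4 of 7 lower and 0 higher, and late neutrophil genes 11 of 11 higher. Erythroid genes had 1 of 8 called lower and 1 higher, and Cd79a and Cd3d were called higher. The part of these cells was not tested.

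The progenitor populations differed less. Of the 48 loci, 43 had a lower mean in CD115plusGMP than in CMP libraries, against 42.1% of all genes. With limma 9 were called lower, against 4.56% of all genes. No locus was called higher (0 with limma, 0 at an unadjusted p under 0.05 and 0 with voom), where 8.08% of all genes were. The median log2 difference was -0.89, beside 0.26 for all genes. Genes at 0 reads in both groups again had a positive difference, 0.80 for Mcpt8, which raises the median of all genes. The 9 were Ccne1, Rfc4, Rpa2, Rfc3, Cdc6, Pole3, Pcna, Mcm2 and Rrm1. Ccne1 had 2, 0 and 3 reads in CD115plusGMP libraries and 20, 27 and 28 in CMP libraries, 8.65-fold lower (95% counting interval 3.55 to 27.4; limma, adjusted p = 0.0164). Rfc4 had 2, 1 and 0 reads in CD115plusGMP libraries and 11, 19 and 16 in CMP libraries, 8.84-fold lower (interval 2.84 to 44.5). Cdc6 had 6, 1 and 4 reads in CD115plusGMP libraries and 14, 20 and 26 in CMP libraries, 3.15-fold lower (interval 1.64 to 6.64). None of these 3 loci overlapped between the groups. Every CD115plusGMP library lay below every CMP library for 20 of the 48 loci and 13.2% of all genes. Rrm1, the deepest of the 9, had 51, 41 and 22 reads in CD115plusGMP libraries and 102, 137 and 201 in CMP libraries, 2.23-fold lower (interval 1.81 to 2.76). Pcna had 13, 7 and 6 reads in CD115plusGMP libraries and 38, 31 and 45 in CMP libraries, 2.53-fold lower (interval 1.64 to 4.04). Orc1 and Orc3 were the only 2 of the 48 loci whose CD115plusGMP libraries all lay above the CMP libraries, which held for 26.1% of all genes. Their differences of 1.06 and 0.64 did not pass the test.

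These 9 calls depended on single libraries: the count was 5 without CMP replicate 1, 1 without CMP replicate 2 and 3 without CMP replicate 3, and 11, 2 and 5 without CD115plusGMP replicates 1, 2 and 3 in turn. With only the 9 shallower libraries in the fit, an alternative chosen after seeing the data, 2 loci were called. Erythroid markers moved beside this comparison, with 7 of 8 called lower and a summed level of 9.52 to 22.1 CPM in CD115plusGMP and 490 to 620 CPM in CMP libraries; in Neutrophil libraries that sum was 0 to 9.61 CPM. The erythroid gene Car1 was at 0 reads in all CD115plusGMP and Neutrophil libraries, against 263 reads in CMP libraries. The part of erythroid cells in these differences was not tested.

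Other lists in these shallower libraries moved with them in part. In Neutrophil minus CMP, 17 of 20 mitosis loci, 16 of 26 other fork and origin loci and 9 of 10 other chromatin loci were called lower with limma, and 1, 2 and 1 higher. Timeless had 0 reads in Neutrophil libraries and 109 in CMP libraries, and Top2a, which untangles copied DNA, 1 read in Neutrophil and 308 in CMP libraries. The mitosis locus called higher was Mki67, named after its values were seen, with 2384 reads in Neutrophil and 741 in CMP libraries. The 16 other loci of nucleotide synthesis were split, 6 lower and 6 higher. Gart, of purine synthesis, had 917 reads in Neutrophil and 30 in CMP libraries, and Samhd1 638 in Neutrophil and 36 in CMP libraries. Of 17 E2F and pocket protein loci 7 were called lower and 2 higher, and of 9 checkpoint loci 4 lower and 2 higher. In CD115plusGMP minus CMP, 2 mitosis loci were called lower, Aurka and Cenpa, and 4 of the other fork and origin loci, among them Orc5 with 0 reads in CD115plusGMP and 21 in CMP libraries.

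Levels across all 5 populations were set side by side as ranks of log2 CPM within each library, not per length and without a test. The median percentile of the 48 genes among tested genes was 66.0, 69.8 and 67.8 in ProNeut libraries and 83.5, 82.8 and 82.6 in PreNeut libraries. It was 27.1, 26.0 and 23.3 in Neutrophil libraries, which is the rank of a gene at 0 reads, 76.9, 70.7 and 70.5 in CD115plusGMP libraries and 82.7, 84.0 and 82.3 in CMP libraries. The medians of PreNeut and CMP libraries were the highest and overlapped, and those of Neutrophil libraries were the lowest. Kind of library and population cannot be told apart here, so no likeness between deeper and shallower populations is drawn from these ranks. Genes at 0 reads share a rank and numbered 3672 to 8266 in the shallower libraries, against 1681 to 2457 in the deeper ones. Spearman's correlation of mean log2 CPM over the 48 genes was 0.828 between CD115plusGMP and CMP. It was 0.219 between Neutrophil and CMP and 0.271 between Neutrophil and CD115plusGMP, although these share the kind of library. Across the kinds of library it was 0.446 to 0.549 for ProNeut or PreNeut with CD115plusGMP or CMP, and 0.07 and -0.03 for ProNeut and PreNeut with Neutrophil. Rrm1 ranked high in every population but Neutrophil, at mean percentiles of 96.5 in ProNeut, 98.9 in PreNeut, 90.6 in CD115plusGMP and 94.8 in CMP libraries. Orc1 ranked lowest in ProNeut (29.2) and high in Neutrophil libraries (83.9), with 47.6 in PreNeut, 75.7 in CD115plusGMP and 61.7 in CMP libraries.

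**Figure D5:**
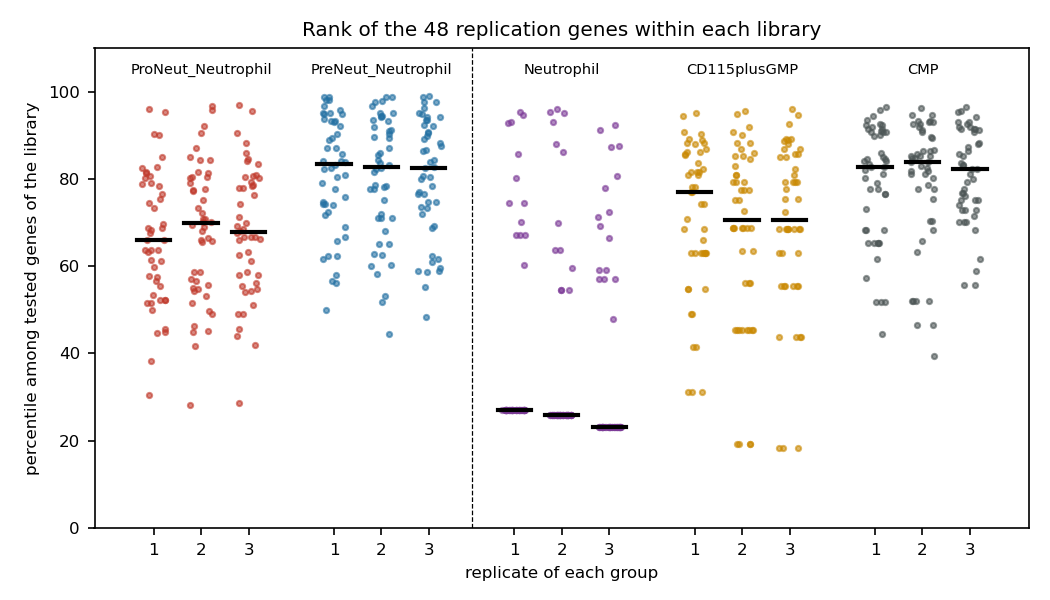
Percentile of each of the 48 replication genes among the tested genes of its library (points), for the 3 libraries of each population, with the median as a bar; the dashed line separates the 6 deeper from the 9 shallower libraries. Medians are 66.0 to 69.8 in ProNeut, 82.6 to 83.5 in PreNeut, 23.3 to 27.1 in Neutrophil, 70.5 to 76.9 in CD115plusGMP and 82.3 to 84.0 in CMP libraries.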

How the data were processed

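Libraries from sorted mouse marrow cells were built, per the labels, with NuGEN's Universal Plus mRNA-Seq kit. The authors deposited 1 table of log2 CPM values for 14801 genes. The tools named are edgeR 1.30.5, featureCounts 1.22.2 and FastQC 0.11.7 with build GRCm38 (mm10), per the submitters' processing notes; for the aligner, strand setting and annotation, this is not given in the sources used here. All deposited log2 values are the log2 of a whole number of reads plus 0.5, times a step per library (100% of values, tolerance 0.001 reads), so reads were recovered; 0 columns were left unmapped. Totals were 810794 to 1444403 reads in 9 libraries and 7493694 to 68171606 in 6, and the shallower ones give the less precise values.

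Groups came from the labels. Group means were fitted to log2 CPM with limma 3.58.1 in R 4.3.3 (eBayes with trend), with 2-sided p-values adjusted by Benjamini-Hochberg over all 14161 genes tested. A gene was called at adjusted p under 0.05 and an absolute log2 difference of at least 1. The steps were tested on simulated data. The 48 genes, the lists and the cell markers were chosen with earlier results of these data known. Every replication gene could be named; values per library are given for called genes and those of largest difference, up to 24 in ProNeut against PreNeut and 8 elsewhere, and up to 4 genes of each other list. A few list genes are not reported here. Loci given for their reads outside that rule were chosen after their values were seen. Replicates of a population differed by more than sampling noise (chi-square per degree of freedom 2.10 to 24.4 over genes), so none were merged. Gene positions and opposite-strand partners came from GENCODE M21 on GRCm38, and promoters from RefSeq. Alternatives covered the filter, the scaling, the reads added before the log, voom, the samples in the fit and leaving out each library.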

Additional observations from a re-analysis of the deposited data

How the results depend on the processing

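All 48 replication genes stayed below 0 in ProNeut minus PreNeut under every alternative run. The count called lower, 8 with all 15 libraries, was 0 with libraries centred on a common median, 22 with 2 reads added, 33 with voom, 33 in the fit of only the 2 groups compared, and 2 to 5 when 1 library was left out; the median was -1.45 after quantile normalization and -1.34 to -1.24 with 1 library left out, with 0 to 0 genes called higher. In the 6-library fit 31 to 37 were called lower under the other alternatives, 46 with no minimum difference and 32 to 34 with 1 library left out. In Neutrophil minus CMP, 5 loci were called higher with centred libraries, and the median was -2.27 centred, -4.19 after quantile normalization, -4.64 with plain library totals and -1.59 with 2 reads added; with 1 library left out, 34 to 40 were called lower and 2 to 4 higher, and the median was -3.54 to -2.99. Gins2 reversed there, to -0.0116 after quantile normalization and -0.16 with plain totals. In Neutrophil minus CD115plusGMP, 19 were called lower with only the 2 groups compared, 1 higher after quantile normalization and 2 with plain totals; the median was -3.28 after quantile normalization, -3.17 with plain totals and -0.90 with 2 reads added; with 1 library left out, 29 to 31 were called lower and 3 to 4 higher, at medians of -2.53 to -2.14. In CD115plusGMP minus CMP, 3 were called lower with centred libraries, 22 with plain totals, 4 with voom and 2 with the 9 shallower libraries alone (added after seeing the data), and the median was -1.44 with plain totals; with 1 library left out, 1 to 11 were called lower, 0 to 0 higher, at medians of -1.09 to -0.79. Beside these, the median of all genes shifted by 1.002 (centred) and -1.36 (plain totals) in Neutrophil minus CMP, 0.65 and -0.81 in Neutrophil minus CD115plusGMP, and 0.35 and -0.56 in CD115plusGMP minus CMP; quantile normalization shifted it by -0.41 in Neutrophil minus CMP and -0.31 in CD115plusGMP minus CMP, and every setting shifted it by less than 0.1 in ProNeut minus PreNeut. The causes of these changes were not tested. The counts per setting stand without the share of all genes called under that setting, so a change in a count is not a result about the replication genes alone. Whether replicate numbers pair the libraries was not settled. Same-number correlations of deviations in ProNeut and PreNeut were 0.08, 0.05 and 0.15, and those between different numbers were -0.13 to 0.09. With the replicate block 6 genes were called lower in ProNeut (Gins2 and Pola1 lost), 36 in Neutrophil minus CMP, 30 in Neutrophil minus CD115plusGMP and 6 in CD115plusGMP minus CMP.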
